A study of Drosophila melanogaster with 78 samples.

Results

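Uhg1 and udd are a pair of Drosophila melanogaster genes whose RNA was measured here in whole embryos at stage 15. Uhg1 is a noncoding gene whose introns hold small nucleolar RNAs (snoRNAs), and udd (under-developed) encodes a protein that works on the ribosomal DNA. The members were the probe sets that carry either symbol in the platform annotation: 1 probe set for Uhg1 and 1 for udd, that is 2 of the 13966 probe sets tested and 2 of 10844 named genes. Both were chosen by their measured levels, which vary between the groups, so every level and difference of Uhg1 and udd below is a description with no test.

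The study compared mutants and transgenics of axon guidance genes at different doses, on 78 Affymetrix arrays in 18 groups of 4 or 5. The groups slit, robo, robo2, robo12, slit.robo and comm mutant are read as mutants, though only the title of the last says so. The labels do not expand robo12, which is counted here with the groups named for slit, robo or comm. The groups slit/WT, robo/WT and comm/WT are read as embryos carrying 1 dose of the mutation. The other groups are titled UC, UC2x, UNC5, UR, UR2, URyf, URyf.mef and FRM, names that the labels do not expand either, and the reference is WT. Below, groups with unexpanded names means these 8. There were 5 arrays each for slit.robo, UC2x, UNC5, URyf, URyf.mef and WT, and 4 for every other group. The labels used here give no alleles, strains or transgene drivers and no background that all groups share. The slit gene encodes the midline repellent, the robo genes its receptors, and comm a protein that keeps Robo off the surface of crossing axons.

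Ribosomal RNA is transcribed by RNA polymerase I in the nucleolus and is then cut and chemically modified. Box C/D snoRNAs, the kind that Uhg1 hosts, pair with the ribosomal RNA and guide the methylation of its riboses; they are freed from the introns as the host RNA is spliced, and the spliced exons code for no known protein. In mammalian cells, spliced host RNAs of this kind are broken down by nonsense-mediated decay. Udd acts with TAF1B and the TAF1C-like protein in a complex that lets polymerase I start on the ribosomal DNA, and is best known from female germline stem cells. In the RefSeq table (Release 6 plus ISO1 MT), both genes lie on chromosome arm 2R, and the span of Uhg1 encloses 16 snoRNA genes, against 0 for udd. Which stretch of the Uhg1 RNA the probe set reads, and so how its level relates to that of the snoRNAs, was not tested.

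All values below are log2 intensities of the deposited table unless a fold is named. Whole-embryo RNA cannot tell apart fewer cells of a type from less RNA per cell. The labels disagree on whether replicates are biological or technical, so p-values measure only the spread between these arrays, which may be technical. The fit takes 1 spread per probe set over all groups, so SEs and p-values are too small where the WT arrays differ more. Array medians of intensity ran between 811.1 and 857.7. WT replicate 1 stood apart from the other 4 WT arrays. On it elav, a neuronal marker, was at 9.35, and between 7.17 and 7.81 on the others. Jon99Fi, a gut protease, was at 10.93 against 7.17 to 7.47, and Cpr67Fa2, a cuticle protein, at 7.68 against 9.00 to 9.29. The neuronal markers Gad1, nSyb and ChAT did not follow elav. Gad1 was lower on that array, at 10.01 against 10.38 to 10.58. There nSyb, at 9.68, lay below the lowest of the others, 9.77, and ChAT lay within their range. WT replicate 1 is also where Uhg1 and udd were lowest in WT. Leaving it out lowers every difference from WT by 0.29 for Uhg1 and by 0.10 for udd; the differences below include it unless said otherwise. It is 1 of 6 arrays whose SD of log2 values lay more than 0.05 from that of their group's middle array; the others are URyf replicates 1 and 2, robo replicate 4, slit replicate 4 and slit.robo replicate 5.

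Uhg1 took up a low and a high set of levels. Its group means ran between 6.90 in slit embryos and 9.69 in comm/WT embryos, a span of 2.79 that corresponds to 6.91-fold. That span ranked 33 among the 13966 probe sets, and the median probe set spanned 0.46. A set of 9 groups, with 38 arrays, had means of 6.90 to 7.39, and 9 groups with 40 arrays had means of 8.04 to 9.69. The highest array of the low set was UC replicate 1 at 7.74. The lowest array of the high set was WT replicate 1 at 7.82, and the next was an FRM array at 7.95.

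In slit embryos, Uhg1 was at 6.85, 6.89, 6.85 and 7.01, against 7.82, 9.30, 9.08, 9.58 and 9.15 on the WT arrays. The groups did not overlap, with means of 6.90 ± 0.07 (SD, n = 4) in slit and 8.99 ± 0.68 (SD, n = 5) in WT, a difference of -2.09 ± 0.14 (SE of the fit), or 4.25-fold lower. This SE rests on a within-group SD of 0.22, pooled over all groups, and so understates the spread of WT. The same holds for the other SEs of Uhg1 against WT. For udd the pooled SD was 0.14, against 0.24 in WT. Without WT replicate 1, the WT mean was 9.28 ± 0.22 (SD, n = 4). On the linear scale Uhg1 averaged 119.5 in slit embryos and 545.9 in WT embryos, at percentiles 6.09 and 34.6 of all probe sets on an array. Both lie below percentile 40, the limit set here for dim probe sets. Its mean over all arrays, 7.92, was at percentile 16.9. The deposited table holds no detection calls, so how far the low values lie above background is unknown.

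The robo arrays gave 6.80, 7.18, 7.11 and 6.84 for Uhg1, a difference from WT of -2.00 ± 0.14. In slit.robo embryos the values were 6.92, 7.04, 7.00, 7.04 and 7.01, and the difference was -1.99 ± 0.13. The robo12 arrays stood at 7.15, 6.95, 7.18 and 6.81, with a difference of -1.96 ± 0.14. None of these arrays reached the lowest WT array. The robo2 arrays stood at 7.06, 7.23, 7.16 and 7.05, a difference of -1.86 ± 0.14, again clear of WT. Among slit, robo, robo2, robo12 and slit.robo themselves, Uhg1 overlapped in 8 of the 10 pairs, and the means of a pair lay 0.02 to 0.22 apart. The robo2 arrays lay above all slit arrays, with means 0.22 apart, and above all slit.robo arrays, with means 0.12 apart. In slit and slit.robo, Uhg1 had the lowest difference from WT of all 13966 probe sets; it ranked 2 in robo12, 3 in robo and 7 in robo2.

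Groups with unexpanded names were also in the low set. Uhg1 was at 7.10, 7.00, 7.07 and 6.97 in UR embryos, and at 7.16, 6.97, 7.06 and 7.25 in UR2 embryos, -1.95 ± 0.14 and -1.88 ± 0.14 from WT. UNC5 arrays read 7.38, 7.29, 6.99, 7.16 and 7.25 (-1.77 ± 0.13), and UC arrays 7.74, 7.34, 7.25 and 7.21 (-1.60 ± 0.14). All of these arrays lay below the lowest WT array, and the UC arrays lay above every slit, slit.robo, robo and robo12 array. In UNC5 and UR2 Uhg1 was again the probe set with the lowest difference from WT.

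FRM, URyf and UC2x embryos overlapped WT through WT replicate 1 and lay below the other 4 WT arrays. FRM embryos had 7.95, 8.12, 8.01 and 8.08 for Uhg1, the lowest of the high set, and their mean of 8.04 was 0.65 above that of UC, the widest gap between neighbouring groups. URyf had 8.47, 8.07, 8.31, 8.30 and 8.39, and UC2x had 8.35, 8.36, 8.62, 8.22 and 8.57. These 3 groups differed from WT by -0.94 ± 0.14, -0.68 ± 0.13 and -0.56 ± 0.13, or by -1.23, -0.97 and -0.85 without WT replicate 1. URyf.mef arrays read 9.33, 9.30, 9.21, 9.27 and 9.10, which is 0.25 ± 0.13 above WT, or -0.037 without WT replicate 1. That array decides how many groups stand clear of WT: Uhg1 did not overlap WT in 9 of 17 groups with it and in 15 of 17 without it, and lay more than 1 below WT in 9 and 10 groups. Over all probe sets and comparisons, with all WT arrays kept, 22.5% did not overlap WT, 0.0981% lay more than 1 below it and 0.695% more than 1 above it. The shares without WT replicate 1 were not computed. Nothing is read from these shares, since the same contrasts chose the members.

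Embryos with 1 dose of a mutation had more Uhg1 RNA than those of the matching mutant group. Uhg1 was at 6.85, 6.89, 6.85 and 7.01 in slit and at 8.62, 8.62, 8.49 and 8.79 in slit/WT, a difference of -1.73 ± 0.15 (3.32-fold lower in slit), the lowest of all probe sets. The robo/WT arrays read 8.37, 8.47, 8.26 and 8.26, so that robo lay -1.36 ± 0.15 from them. The comm mutant arrays read 8.71, 8.73, 8.68 and 8.50, against 9.86, 9.92, 9.61 and 9.36 in comm/WT, a difference of -1.03 ± 0.15. In none of the 3 families did the mutant and its /WT arrays overlap. The share of all probe sets without overlap was not computed for pairs of related groups. Overlap in such pairs, for either gene, is therefore only a description. The comm mutant group, at 8.65 ± 0.10 (SD, n = 4), overlapped slit/WT at 8.63 ± 0.12 (SD, n = 4) and lay above robo/WT at 8.34 ± 0.10 (SD, n = 4).

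The 1-dose levels of Uhg1 did not lie midway between mutant and WT on the log2 scale. They lay above the midpoint by 0.69 ± 0.13 (SE) for slit, 0.35 ± 0.13 for robo and 0.87 ± 0.13 for comm. These distances without WT replicate 1 were 0.54 for slit, 0.21 for robo and 0.72 for comm. They depend on the scale. On the linear scale robo averaged 127.2, robo/WT 324.0 and WT 545.9, which puts robo/WT slightly below midway. There slit/WT, at 397.4 against 119.5 in slit, stayed above midway. The comm/WT mean lay above both comm mutant and WT, so its distance is not a place between them. The comm/WT group has the highest mean of all 18, at 0.70 ± 0.14 above WT, or 0.41 ± 0.10 without WT replicate 1, and its arrays overlap WT in both cases. Its arrays also differ in a quality measure. The difference between the 3' and 5' probe sets of the GAPDH control was 2.80 and 2.75 on comm/WT replicates 1 and 2, where Uhg1 read 9.86 and 9.92, and 1.81 and 1.78 on replicates 3 and 4, where it read 9.61 and 9.36. As a group mean, this GAPDH difference was 2.28 in comm/WT and 2.19 in robo/WT, higher than in any other group. It was 1.92 in comm mutant, 1.83 in robo, 1.71 in WT, 1.68 in slit/WT and 1.60 in slit. The part of this measure in the differences between mutant, /WT and WT groups was not tested.

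**Figure D1:**
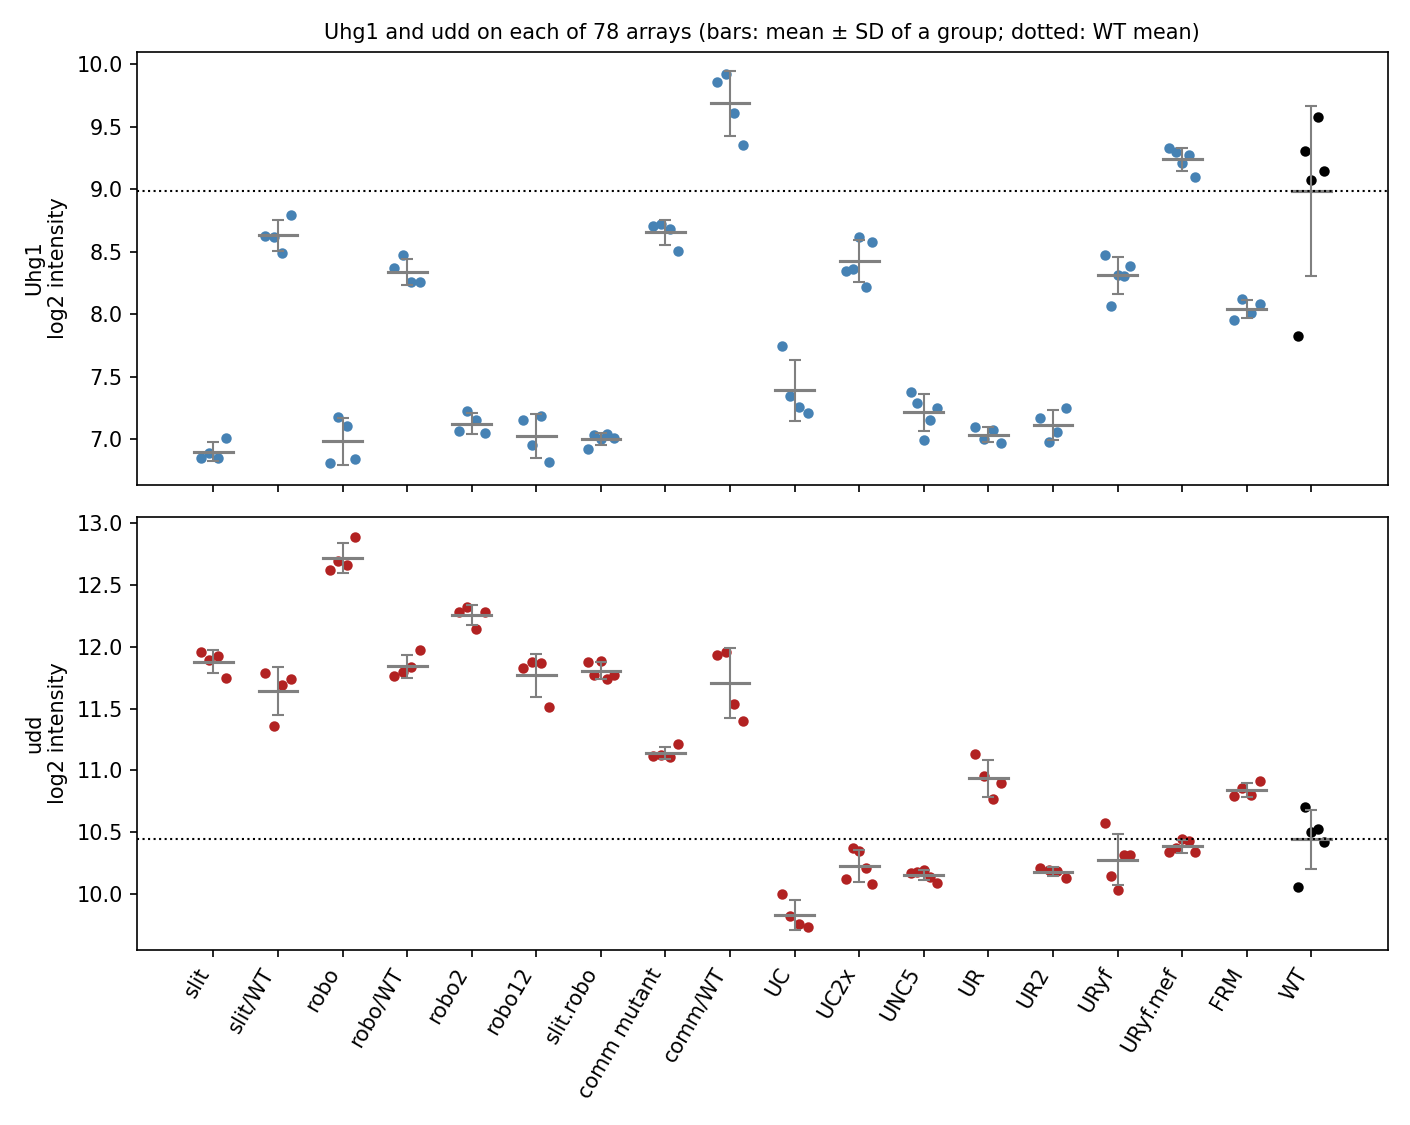
Log2 intensity of Uhg1 (upper panel) and udd (lower panel) on each of the 78 arrays, by group with WT at the right; each point is an array, gray bars are the group mean ± SD, and the dotted line is the WT mean. Uhg1 falls into a low set of 9 groups with means up to 7.39 and a high set from 8.04, with WT replicate 1 at 7.82; udd is highest in robo (12.72) and lowest in UC (9.83).

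Between the groups with unexpanded names, Uhg1 also separated related titles. UC2x lay above UC by 1.04 ± 0.14, URyf above UR by 1.28 ± 0.14, and FRM above UR by 1.01 ± 0.15. URyf.mef lay above URyf by 0.93 ± 0.13. In each of these 4 pairs the arrays did not overlap, again without a share over all probe sets to set beside it. UR2 and UNC5 lay 0.08 ± 0.15 and 0.18 ± 0.14 from UR, with overlapping arrays.

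The groups came in another order for udd. Its group means ran between 9.83 in UC and 12.72 in robo embryos, a span of 2.89 or 7.40-fold, which ranked 26 among all probe sets. The 9 groups named for slit, robo, robo2, robo12 or comm had means of 11.14 to 12.72, the 8 groups from UC to FRM means of 9.83 to 10.94, and WT a mean of 10.44. Of the 41 arrays of UC to FRM and WT, 1 (UR replicate 1 at 11.13) lay above the lowest of the 37 arrays of the mutant and /WT groups, a comm mutant array at 11.11. For Uhg1 the same sets of groups overlapped over nearly the whole range, with means of 6.90 to 9.69 in the groups named for slit, robo or comm and 7.03 to 9.24 in UC to FRM.

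Of all groups, robo embryos had the most udd RNA. The udd probe set read 12.62, 12.70, 12.66 and 12.89 in robo, against 10.05, 10.71, 10.50, 10.52 and 10.43 in WT. The groups did not overlap, and the difference was 2.28 ± 0.09 (SE), or 4.84-fold higher, and it ranked 4 from the top among all probe sets. On the linear scale udd averaged 6751 in robo and 1406 in WT embryos, at percentiles 95.6 and 67.4 of an array, so unlike Uhg1 it was read among the brighter probe sets. WT replicate 1 was again the lowest WT array, and without it the WT mean was 10.54 ± 0.12 (SD, n = 4).

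The robo2 group came next, at 12.28, 12.32, 12.15 and 12.28, 1.82 ± 0.09 above WT and 0.46 ± 0.10 below robo with no overlap in either case. The slit arrays read 11.96, 11.89, 11.93 and 11.75, the slit.robo arrays 11.87, 11.77, 11.88, 11.74 and 11.77, and the robo12 arrays 11.83, 11.88, 11.87 and 11.51. These 3 groups lay 1.44, 1.37 and 1.33 above WT (SE 0.09 each) and could not be put in order among themselves, since their arrays overlap. All 3 lay clear of robo, by -0.84 ± 0.10 for slit, -0.91 ± 0.09 for slit.robo and -0.95 ± 0.10 for robo12. The group named for both slit and robo thus had a udd level like that of slit (-0.07 ± 0.09 between them) and not like that of robo; robo12 lay -0.49 ± 0.10 from robo2.

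The /WT groups also had udd levels above WT. The slit/WT arrays read 11.79, 11.36, 11.69 and 11.74 and overlapped slit, which lay 0.24 ± 0.10 above them. The robo/WT arrays read 11.76, 11.79, 11.84 and 11.97, and robo lay 0.88 ± 0.10 above them with no overlap. In the comm family the sign was the other way: comm mutant read 11.12, 11.13, 11.11 and 11.21, against 11.94, 11.96, 11.54 and 11.40 in comm/WT, a difference of -0.57 ± 0.10 with no overlap. The comm/WT arrays with the wider GAPDH difference are again the higher ones. Comm mutant and the 3 /WT groups all lay above WT without overlap, by 0.70 for comm mutant, 1.20 for slit/WT, 1.27 for comm/WT and 1.40 for robo/WT (SE 0.09 each).

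**Figure D2:**
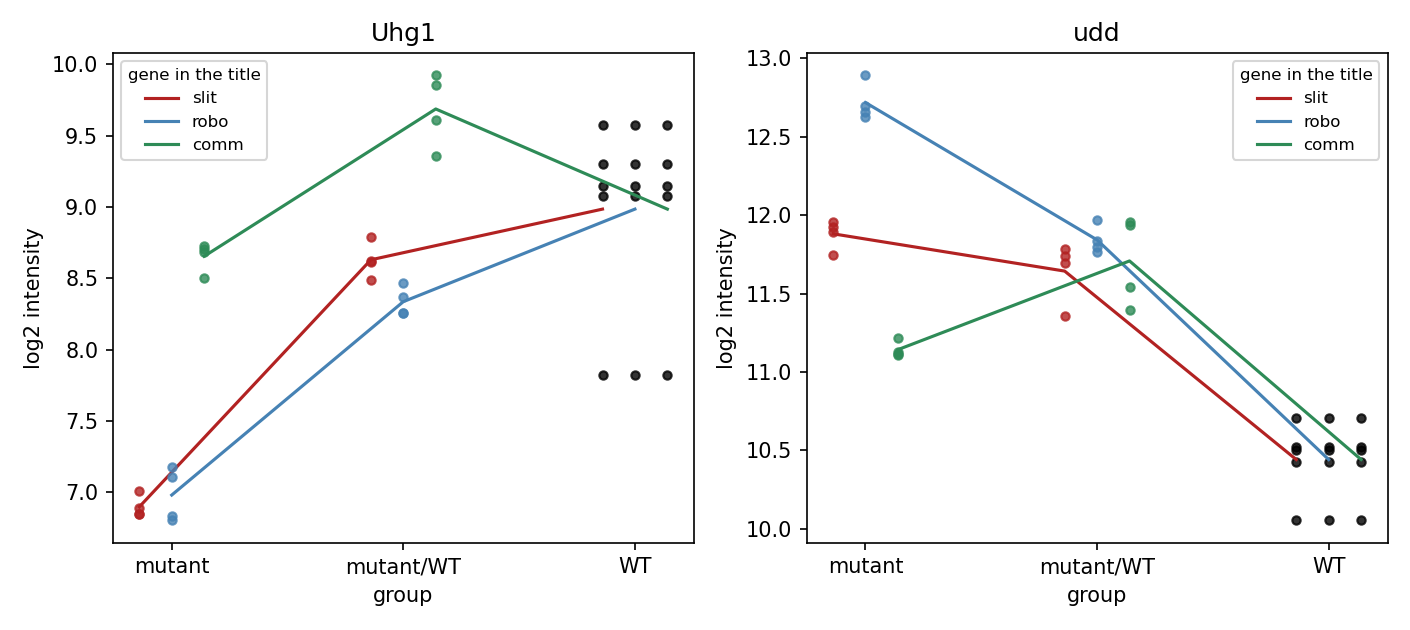
Log2 intensity of Uhg1 (left) and udd (right) in the slit, robo and comm families, with the mutant group left, the /WT group in the middle and WT at the right; points are arrays, lines join group means, and the same 5 WT arrays (black) are drawn once per family. Uhg1 is lower in each mutant than in its /WT group, while udd is higher in robo than in robo/WT by 0.88 and lower in comm mutant than in comm/WT by 0.57.

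The 8 groups with unexpanded names differed from WT by -0.61 to 0.50 for udd, and 3 of them stood clear of WT, or 6 without WT replicate 1. UR arrays read 11.13, 10.95, 10.77 and 10.90 and FRM arrays 10.79, 10.86, 10.80 and 10.91, above WT by 0.50 ± 0.09 and 0.40 ± 0.09 with no overlap. UC arrays read 10.003, 9.83, 9.76 and 9.73, below every WT array and -0.61 ± 0.09 from the WT mean. UC is thus the group with the least udd RNA and stood clear of UNC5, the next group, by 0.32.

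The other 5 groups overlapped WT. UR2 read 10.21, 10.20, 10.19 and 10.13, and UNC5 read 10.17, 10.18, 10.20, 10.14 and 10.09. UC2x read 10.12, 10.37, 10.35, 10.21 and 10.09, and URyf read 10.58, 10.15, 10.03, 10.31 and 10.32. URyf.mef, at 10.34, 10.37, 10.44, 10.43 and 10.34, was the closest to WT, with a difference of -0.06 ± 0.09, or -0.15 ± 0.08 without WT replicate 1. For UR2, UNC5 and UC2x the overlap rests on WT replicate 1: udd stood clear of WT in 12 of 17 groups with that array and in 15 without it. Over all probe sets and comparisons, 22.5% did not overlap WT with that array. The share without it was not computed, and nothing is read from these counts. UR2, URyf and UNC5 lay -0.76, -0.66 and -0.78 from UR (SE 0.10, 0.09 and 0.09) without overlap, whereas UC2x lay 0.40 ± 0.09 above UC.

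Set against each other, Uhg1 and udd had no common order. Over the 18 group means, Pearson's r was -0.22 and Spearman's rho -0.35. This is a description, since the groups are not unrelated points. All were embryos of the same stage on the same platform, and several share a gene or a name in their titles. Within the 9 groups named for slit, robo or comm, r was -0.56 (rho -0.73), and within the 8 groups UC to FRM it was 0.03 (rho 0.07). Low Uhg1 occurred with udd at 12.72 in robo and with udd at 9.83 in UC, and high Uhg1 with udd at 11.71 in comm/WT and at 10.39 in URyf.mef. Within groups the arrays did go together: over the 78 deviations from group means r was 0.52 (rho 0.30), and 0.36 without WT replicate 1. The udd deviations also went with the array SD (r = 0.54) and with the GAPDH 3' to 5' difference (r = 0.48), and those of Uhg1 less so (r = 0.20 and 0.31). The part of these measures in the shared deviations was not tested. Over the 18 group means, r with the GAPDH difference was 0.50 for Uhg1 and 0.36 for udd, and r with the array SD was 0.18 for Uhg1 and -0.02 for udd.

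**Figure D3:**
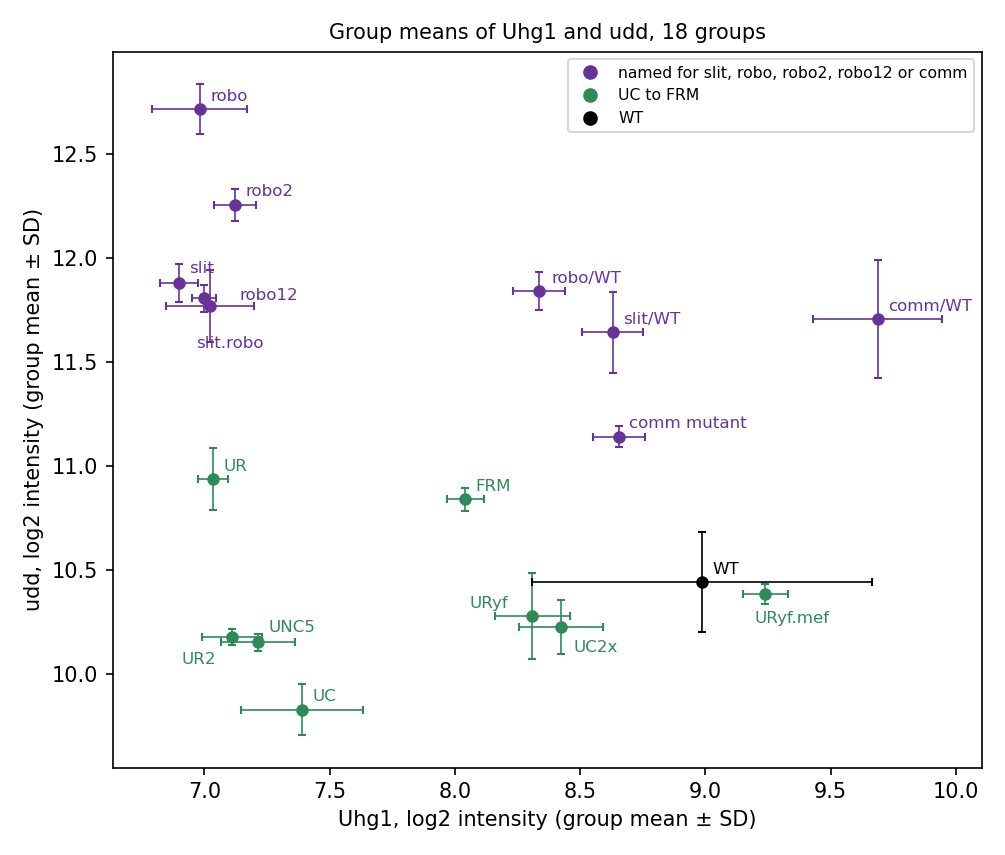
Group means of udd (vertical) against Uhg1 (horizontal) in log2 intensity for 18 groups, with SD bars over the 4 or 5 arrays; color marks groups named for slit, robo, robo2, robo12 or comm, groups UC to FRM, and WT. Groups with low Uhg1 span udd means of 9.83 to 12.72, and the groups named for slit, robo or comm all lie at udd of 11.14 or more.

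The genes most like Uhg1 over the 18 group means moved far less than Uhg1. They were Bap170, a subunit of a chromatin remodelling complex (r = 0.81), CG13185 (0.79), Chi, a cofactor of LIM-domain transcription factors (0.77), CG11367 (0.76) and CG2100 (0.76). Their group means spanned 0.31 to 0.42, against 2.79 for Uhg1. Those most opposed to Uhg1 were disco-r, a zinc finger protein (r = -0.82), CG13116 (-0.75), CG4199 (-0.75), CG12716 (-0.74) and Sk1, a sphingosine kinase (-0.73). Within groups, the deviations of the 5 alike genes had r of -0.06 (Bap170) to 0.21 (CG13185) with those of Uhg1. The 5 opposed genes had r of -0.45 (CG13116) to 0.09 (CG4199). The sign within groups was that between groups for 4 of the 5 alike and 4 of the 5 opposed genes. All these genes, and those given for udd, are the extremes of 10844 named genes over 18 means, so the size of r is no test.

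For udd the closest gene was CG6738 (r = 0.86), whose group means spanned 1.16. PIP5K59B, a lipid kinase, followed with r = 0.84, then Ugt35A1, a UDP-glycosyltransferase (0.82), jef (0.81) and mxt, a translation factor (0.81). The most opposed gene was Mybbp1A, whose mammalian counterpart is a nucleolar protein, with r = -0.82 but a span of 0.18. MCTS1, a translation re-initiation factor (-0.82), CG15443 (-0.81), mre11, a DNA repair nuclease (-0.81), and Est-Q, an esterase (-0.81), came after it. The spans of mre11 and Est-Q were 1.05 and 1.09. Within groups, r with udd ran between -0.49 (jef) and 0.44 (Ugt35A1) for the alike genes and between -0.27 (Est-Q) and 0.35 (mre11) for the opposed ones. Only 2 of the 5 alike and 2 of the 5 opposed genes kept the sign they had between groups.

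Genes that lie beside Uhg1 did not share its low levels. The 20 measured neighbours, 10 on each side, had group means spanning 0.26 to 1.30. Their r with Uhg1 over the 18 group means lay between -0.34 and 0.71 with a median of 0.08 (all probe sets: -0.04). Percentiles 5 and 95 of all r were -0.46 and 0.50, so the highest neighbour r lay above that range. In the 17 comparisons with WT, which share the same WT arrays, limma called a neighbour higher in 41 of 340 tests (12.1%) and lower in 80 (23.5%). Over all probe sets, the share of calls was 16.4% higher and 23.4% lower at an adjusted p under 0.05. These shares were 14.7% and 18.7% without WT replicate 1, and 12.4% and 15.3% with the array SD as a covariate. Counts named below for either setting are read against its own shares. For every other setting no share over all probe sets is given, so nothing is read from its counts. With quantile normalization the neighbours of Uhg1 had 58 higher and 44 lower calls.

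The nearest 3 genes on one side of Uhg1 were rdgBbeta, a phosphatidylinositol transfer protein, called higher in 1 comparison (1 higher and 4 lower without WT replicate 1), swi2, called lower in 4, and CG42562, called higher in 1. On the other side were CG6424, whose span overlaps that of Uhg1 and which was called higher in 9, CG10934, called lower in 12, and Dlish, a Fat pathway protein, called lower in 9. Whether the arrays keep the overlapping RNAs of Uhg1 and CG6424 apart was not tested; the differences of CG6424 from WT lay between -0.13 in UC and 0.46 in UC2x. The widest span among the neighbours belonged to eIF3c, a subunit of a translation initiation factor. It rose in all 17 comparisons, by 0.57 in robo2 to 1.30 in URyf.mef. In slit, where 15.8% of all probe sets were called higher, limma gave it an adjusted p of 5.1e-07, and it averaged 11.44 ± 0.13 (SD, n = 4), against 10.51 ± 0.66 (SD, n = 5) in WT. That p rests on the pooled spread and does not measure that of the WT arrays, where eIF3c ran between 9.44 and 11.23. CG10934 and ND-51L1 were called lower in 12 and 10 comparisons, with median differences of -0.20 and -0.24.

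The neighbours of udd, 20 as well, had spans of 0.22 to 1.67 and r with udd between -0.46 and 0.38 (median 0.07). They were called higher in 69 of 340 tests (20.3%) and lower in 72 (21.2%). Nearest were Cul4, a scaffold of ubiquitin ligases (2 higher, 3 lower), Tmem63, an ion channel (2 higher), and uno (13 lower) on one side, and Asap, an ArfGAP (6 lower), Nup50, a nucleoporin (3 higher, 2 lower), and coil, the Cajal body protein coilin (3 higher), on the other. Without WT replicate 1, coil was called higher in 1 and lower in 2, with its median difference at -0.05 against 0.08 with that array. Asap was then lower in 3, Tmem63 higher in 0, Cul4 higher in 3 and lower in 1, and Nup50 higher in 3 and lower in 0. Obp44a, an odorant-binding protein, rose in all 17 comparisons (median 0.56) and Pabp2, a nuclear poly(A)-binding protein, in 13, up to 1.58 in comm/WT. The slv gene fell in 13, with a median of -0.17.

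**Figure D4:**
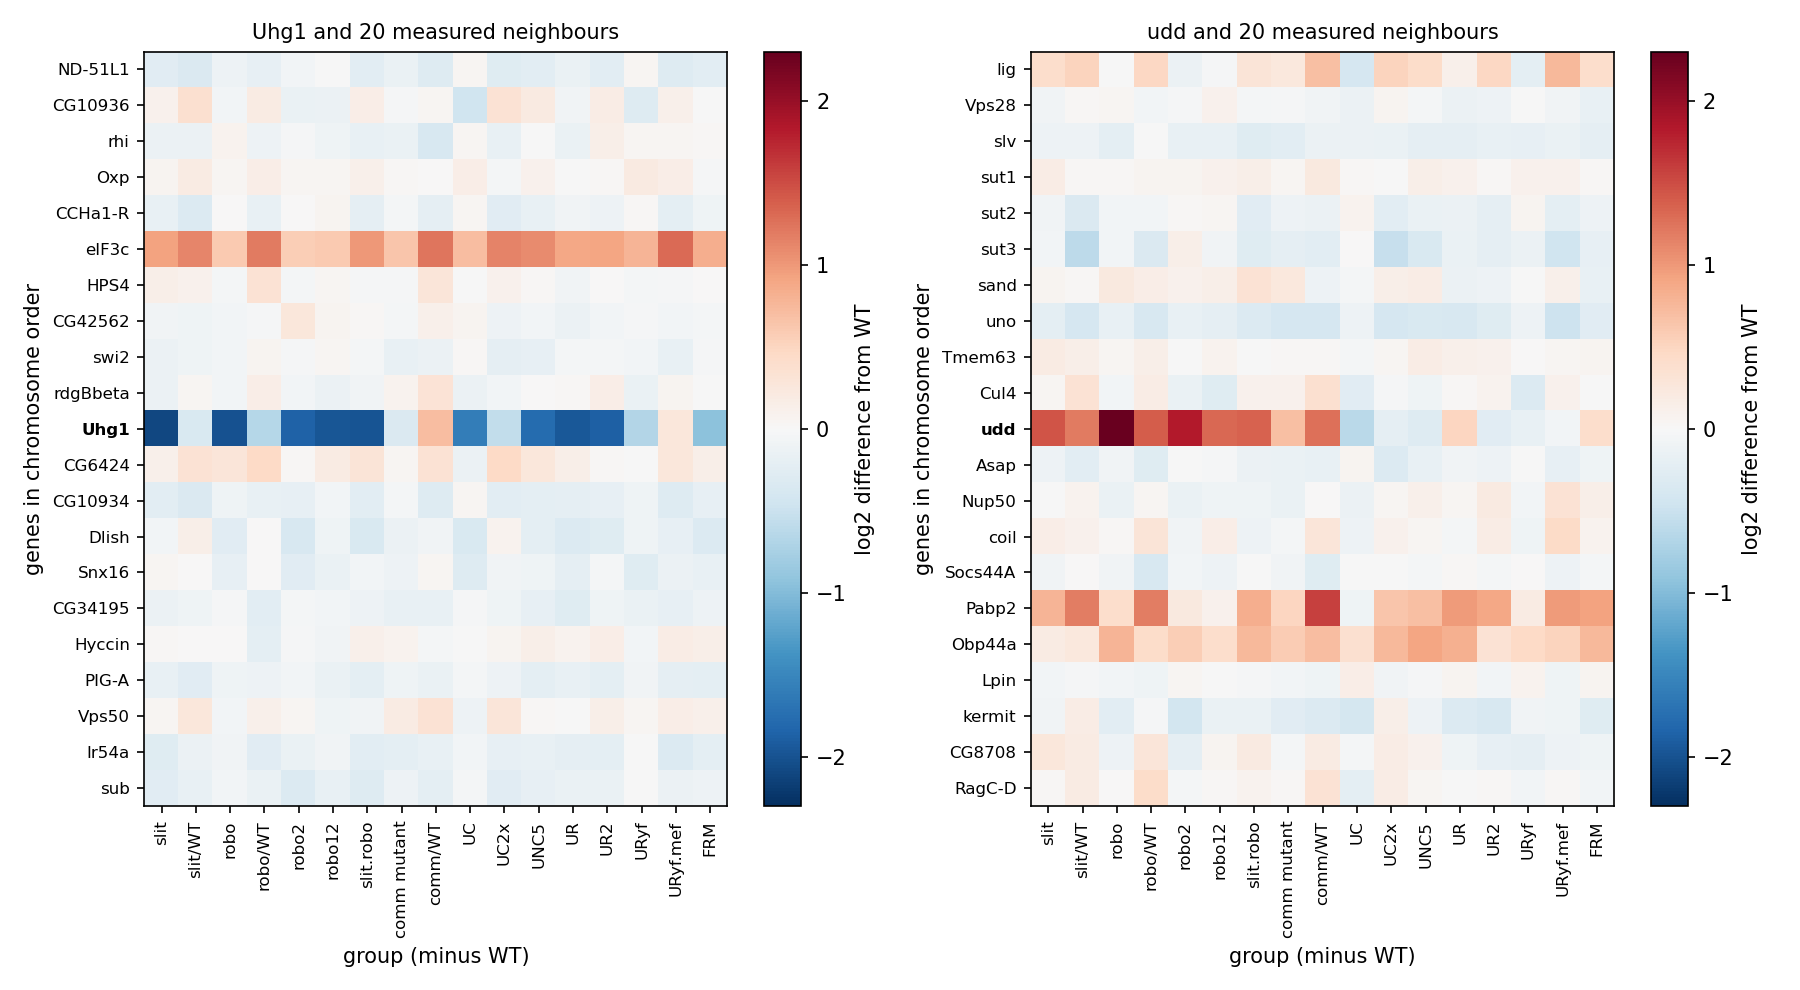
Log2 difference from WT in 17 groups for Uhg1 (left) and udd (right), each with its 20 measured neighbours in chromosome order; red is higher and blue lower than WT. Uhg1 is blue in 15 groups, to -2.09 in slit, while its neighbours stay pale except eIF3c. The udd row is red in 11 groups, to 2.28 in robo. Obp44a is above WT in all 17 groups and Pabp2 in 16, so also in groups where udd is not.

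Genes of the rRNA transcription machinery had small differences from WT beside those of udd. Of the rRNA transcription genes, 12 of 15 were measured, and they were called higher in 24 of 204 tests (11.8%) and lower in 42 (20.6%), against 16.4% and 23.4% over all probe sets. With the array SD as a covariate, the counts were 4 and 72. The medians of their differences lay between -0.14 and 0.15 across comparisons, and those of all probe sets between -0.08 and 0.00. TAF1B and TAF1C-like, the partners of Udd, were called lower in 4 and 5 comparisons and higher in 0, with medians of -0.08 and -0.11; without WT replicate 1 they were lower in 5 and 2. TAF1B had r = -0.26 and TAF1C-like r = -0.23 with udd. Polr1C, a subunit shared with polymerase III, fell in 13 comparisons and Polr2H, a subunit shared by the nuclear polymerases, in 11, but Polr2H in 5 without WT replicate 1. Polr1E rose in 8 and fell in 2. Tif-IA, an initiation factor of polymerase I, rose in 3 and fell in 1, against 0 and 3 without that array.

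The proteins that bind snoRNAs had more higher than lower calls, a split that turned round with the array SD as a covariate (31 higher, 39 lower). Of this list 9 of 11 were measured, with 49 of 153 tests higher (32.0%) and 14 lower (9.15%), and medians of -0.20 to 0.36. Gar1, of the pseudouridine-guiding snoRNPs, rose in 16 comparisons. It averaged 12.42 ± 0.11 (SD, n = 4) in comm/WT, against 11.68 ± 0.22 (SD, n = 5) in WT. Fib, the methyltransferase of the box C/D snoRNPs, rose in 11, by 0.80 in comm/WT, and Nop56, its partner in those particles, rose in 6 and fell in 1. Nop60B, the pseudouridine synthase, was called higher in 5 and lower in 2 comparisons. Its difference in slit was -0.78 ± 0.11 (limma adjusted p = 5.2e-08, with 24.2% of all probe sets called lower), the direction that Uhg1 has there, but in robo it was higher by 0.35 ± 0.11 (limma adjusted p = 0.019, with 7.81% of all probe sets called higher). Without WT replicate 1, on which Nop60B read 6.99 against 7.69 to 8.04 on the other WT arrays, it was called higher in 0 and lower in 6.

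Other genes that host snoRNAs ranged widely in their likeness to Uhg1. The table enclosed a snoRNA gene in 112 genes besides Uhg1, of which 66 were measured; the other Uhg genes (Uhg2, Uhg3, Uhg4, Uhg5, Uhg7 and Uhg8) had 0 probe sets of that name. The hosts were called higher in 301 of 1122 tests (26.8%) and lower in 144 (12.8%), with medians of -0.05 to 0.13. Their r with Uhg1 lay between -0.59 for Pi4KIIalpha and 0.64 for pit, with a median of 0.16. Rbfox1, an RNA-binding splicing regulator, and drn rose in all 17 comparisons with medians of 1.15 and 0.91, tn, a muscle protein, in 16 and pAbp, the poly(A)-binding protein, in 15. With the array SD as a covariate the hosts had 203 higher and 193 lower calls. The 6 measured hosts that enclose 7 or more snoRNA genes, a rule chosen after values were seen, were Arpc2 with 17 (10 higher, 0 lower), dom with 15 (5 higher, 1 lower), Sf3b3 with 9 (11 higher, 0 lower), and Hrb98DE (9 higher, 2 lower), Nop60B (5 higher, 2 lower) and RpS7 (0 calls) with 7 each. Arpc2, without WT replicate 1, was called higher in 6, Sf3b3 higher in 8 and lower in 2, and Hrb98DE higher in 6 and lower in 3.

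**Figure D5:**
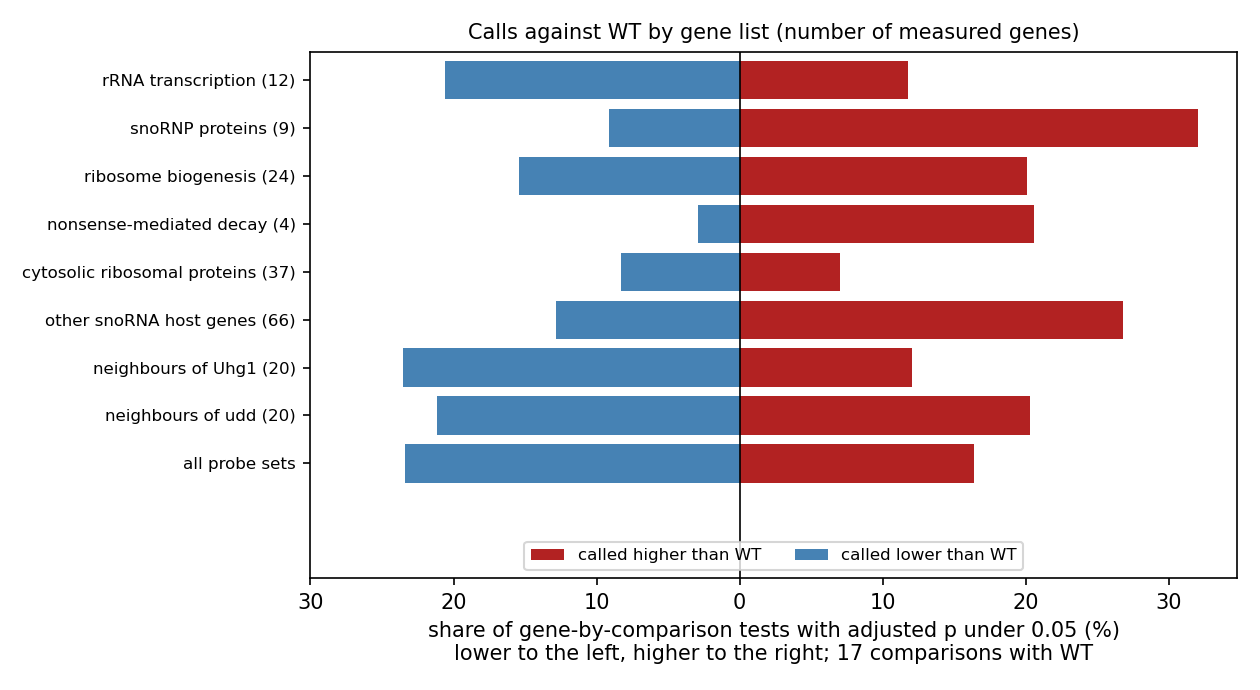
Share of tests with adjusted p under 0.05 against WT, pooled over 17 comparisons, for 8 gene lists and for all probe sets; bars to the right are calls higher and bars to the left calls lower than WT. The snoRNP proteins (32.0%) and other snoRNA hosts (26.8%) have larger shares of higher calls than all probe sets (16.4%), and the neighbours of Uhg1 have nearly the same share of lower calls (23.5% against 23.4%).

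Ribosome biogenesis factors were called in both directions: 24 of 30 were measured, with 82 of 408 tests higher (20.1%) and 63 lower (15.4%), or 29 and 95 with the array SD as a covariate. The nucleolar protein mod rose in 11 comparisons (7 without WT replicate 1) and Ns1, a nucleostemin, in 10, while the helicase pit and eIF6, a factor of the large subunit, fell in 9 each. Mybbp1A, the gene most opposed to udd, fell in 5, and in 0 without WT replicate 1. Of the nonsense-mediated decay genes, 4 of 7 were measured, with 14 of 68 tests higher (20.6%) and 2 lower (2.94%). With the array SD as a covariate the counts were 5 and 1, and in fits of only the compared groups 8 and 0. The endonuclease Smg6 gave 11 of the higher calls, 7 without WT replicate 1, and the helicase Upf1 gave 0 in either direction. Cytosolic ribosomal proteins, 37 of 93 measured, gave 44 of 629 tests higher (7.00%) and 52 lower (8.27%); 25 of the 37 averaged 15 or more in WT, near the highest value on any array (15.46). With quantile normalization this list had 21 higher and 67 lower calls. RpS5b rose in 12 comparisons and fell in 2, RpS28a fell in 12, RpLP2 rose in 8 (14 without WT replicate 1) and RpS29 rose in 6. RpS5b and RpS28a have related genes, RpS5a, which was not measured, and RpS28b, which averaged 15.41 against 9.55 for RpS28a. Whether the probes also read RNA of these related genes was not tested.

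Markers of single tissues were set beside the members, since whole embryos hold them all. The midgut list, with 3 of 4 genes measured, had a mean level of 9.53 in slit, 12.49 in UC2x and 10.27 in WT, and r = -0.69 with udd over the 18 groups (0.20 with Uhg1). It was called higher in 23 of 51 tests and lower in 12 (4 without WT replicate 1), and all 3 genes were lower in slit and higher in UC, UC2x and UR. Over all probe sets, 24.2% were called lower in slit, and 12.4% higher in UC, 24.2% in UC2x and 14.4% in UR; Jon99Fi was 5.17 above WT in UC2x. Jon99Fi was called lower in 8 comparisons, or in 1 without WT replicate 1. Its part in the levels of udd was not tested. For the other marker lists, r lay between -0.35 and 0.44 with Uhg1 and between -0.36 and 0.41 with udd. Germ cell genes, where udd is best known, had mean levels of 8.65 in UR to 8.83 in comm/WT, with r = 0.01 with udd. They gave 30 higher (25.2%) and 35 lower (29.4%) calls of 119, or 22 and 5 with the array SD as a covariate. Among the calls were 11 lower for vas, a germ cell helicase, and 15 higher for gcl.

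The calls of the remaining marker lists, in all 17 comparisons together, stand beside 16.4% higher and 23.4% lower over all probe sets. Neurons (5 of 7 genes measured) gave 36 higher (42.4%) and 0 lower of 85 tests, and muscle (3 of 6) gave 28 (54.9%) and 0 of 51. Glia (4 of 4) gave 6 higher (8.82%) and 5 lower (7.35%) of 68, and hemocytes (5 of 5) gave 27 (31.8%) and 9 (10.6%) of 85. The cuticle-forming epidermis (7 of 7) gave 49 higher (41.2%) and 22 lower (18.5%) of 119. Salivary gland (2 of 3) gave 2 higher (5.88%) and 8 lower (23.5%) of 34, and fat body (2 of 3) gave 0 and 21 (61.8%) of 34. Hemocytes without WT replicate 1 had 15 higher and 14 lower calls, glia 5 and 10, and salivary gland 5 and 8. With the array SD as a covariate, hemocytes had 7 higher and 12 lower calls, glia 3 and 9, salivary gland 10 and 3, and fat body 0 and 6. Neurons and muscle had at most 1 lower call in either setting. The higher calls of muscle were 19 in each, and those of neurons 37 without WT replicate 1 and 43 with the array SD. The cuticle-forming epidermis had 41 higher and 22 lower calls without WT replicate 1, and 33 and 25 with the array SD.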

How the data were processed

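RNA of stage 15 embryos was labelled from 6 ug total RNA, per the labels' protocols. The deposited values are linear intensity values made by the authors with RMA, per the submitters' processing notes; no RMA version was among the sources used here. No background or detection call comes with them, and log2 was taken first, since the design had assumed log2 values.

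Of 14010 probe sets, 44 controls were left out. Of the rest, 12443 had 1 gene name, 327 several and 1196 none; 12394 names were updated through the RefSeq table (Release 6 plus ISO1 MT) and 49 kept. Hosts were genes enclosing 1 of 273 snoRNA genes; strand could not be used, since the table holds none.

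The limma fit (version 3.58.1, R 4.3.3) covered all 78 arrays, with 1 mean for each of the 18 groups and 60 residual degrees of freedom. P-values were two-sided and adjusted by Benjamini-Hochberg over the 13966 probe sets of a comparison, with a threshold of 0.05. Members and lists were chosen with earlier results of these data known. The text names the members, the 5 genes most like and most opposed to each, the 3 nearest neighbours a side, and up to 4 genes per list called most often; TAF1B, Tif-IA and Pi4KIIalpha were added after their values were seen. Lists covered rRNA transcription, snoRNP proteins, ribosome biogenesis, nonsense-mediated decay, ribosomal proteins, snoRNA hosts, neighbours and 9 marker lists. The fit was tested on simulated data. Alternatives are listed in the closing section. The number of arrays limits the precision.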

Additional observations from a re-analysis of the deposited data

Results flagged for a closer look

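In 3 of 36 sets of arrays (2 genes in 18 groups), a single array lay far from the others of its group by Dixon's criterion, which chance meets in about 5% of sets; this is given as a description of the arrays and not as a test of the members' levels. Uhg1 read 7.82 on WT replicate 1, and the next WT array read 9.08. For udd, robo12 replicate 4 read 11.51 and the next robo12 array 11.83, and comm mutant replicate 4 read 11.21 and the next comm mutant array 11.13.

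The direction of udd differed between families: robo minus robo/WT was 0.88, with every robo array above every robo/WT array, and comm mutant minus comm/WT was -0.57, with every comm mutant array below every comm/WT array. The difference between these families was not tested.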

How the results depend on the processing

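The choice of WT as the reference decides 8 of the 34 signs. Set against the average of the remaining groups instead of WT, Uhg1 turned to 0.78 in slit/WT, 0.47 in robo/WT, 0.81 in comm mutant, 0.56 in UC2x, 0.44 in URyf and 0.16 in FRM, and udd to -0.19 in UR and -0.29 in FRM. Groups with Uhg1 over 1 below numbered 1, and groups with udd over 1 above 2; calls were 25 lower for rRNA transcription, 25 lower for snoRNP proteins, 8 higher and 4 lower for nonsense-mediated decay and 46 lower for the neighbours of Uhg1. Without the arrays that stand apart, and without WT replicate 1 alone, Uhg1 in URyf.mef was at -0.037; leaving out all 6 such arrays gave 28 lower calls for snoRNP proteins and 1 for nonsense-mediated decay. With the array SD as a covariate, calls were 4 higher and 72 lower for rRNA transcription, 31 and 39 for snoRNP proteins, 29 and 95 for ribosome biogenesis, 5 and 1 for nonsense-mediated decay, 14 higher for ribosomal proteins and 36 lower for the neighbours of Uhg1. Fits of only the compared groups gave 17 lower for rRNA transcription, 9 lower for snoRNP proteins, 28 lower for ribosome biogenesis, 8 higher and 0 lower for nonsense-mediated decay, 26 higher and 29 lower for ribosomal proteins, 81 lower for other hosts, 26 higher for the neighbours of Uhg1 and 45 lower for those of udd. Quantile normalization gave 21 higher for ribosomal proteins and 44 lower for the neighbours of Uhg1, leaving out dim probe sets 10 lower for these neighbours, and array weights 1 lower for nonsense-mediated decay. The causes were not tested. Shares over all probe sets are given only for the main fit, without WT replicate 1 and with the array SD. Counts of the other settings are thus listed without a reading. Leaving out 1 array at a time moved the higher calls of rRNA transcription between 15 (without WT replicate 5) and 42 (without WT replicate 2), and Uhg1 in URyf.mef between -0.037 (without WT replicate 1) and 0.40 (without WT replicate 4).

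Quantile normalization, fits of only the compared groups and the replicate block left all 34 differences of Uhg1 and udd from WT within 1 SD of their values, as did the mean of a gene's probe sets. With the array SD as a covariate 11 of the 34 moved by more, with array weights 3, without the 6 arrays that stand apart 18 and a further 1 that reversed, and against the average of the remaining groups 26 and a further 8 that reversed. Without WT replicate 1 alone, all 17 differences of Uhg1 moved by more than 1 SD and none of the 17 of udd did.

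The replicate numbers do not pair the arrays: the median r of their deviations was 0.01 over 627 pairs with the same number and -0.005 over 2244 others. With a replicate block, 9 groups had Uhg1 over 1 below WT, 8 had udd over 1 above, and r between them was -0.21.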
